A study of Danio rerio with 5 samples.

Results

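The genes described here encode the nuclear pore complex and the receptors that carry cargo through it. They were the 48 of 32520 genes in the deposited tables whose symbol starts with nup and a digit, kpna, kpnb, ipo and a digit, xpo and a digit, or tnpo, in capitals or not. The rule used symbols only and no measured value, but it was set with earlier results of these data known. Of the 48 genes, 22 were nucleoporins and 26 were transport receptors, and 47 had enough reads to be tested.

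Nucleoporins assemble into the channels that pierce the nuclear envelope. Scaffold subunits form outer Y-shaped complexes and an inner ring, and subunits rich in phenylalanine-glycine repeats line the channel and bind passing receptors. Importins carry proteins inwards, usually with importin alpha as the adaptor that reads the nuclear localisation signal, and exportins carry cargo outwards, with the small GTPase Ran setting the direction. The early zebrafish embryo cleaves rapidly on maternal stores, and each division needs new nuclear envelopes and pores before the embryo's own genome takes over.

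RNA was sequenced from whole embryos of the zebrafish, Danio rerio, collected 4 hours after fertilisation, all from experiments with RfxCas13d, a nuclease that cuts transcripts matched by a guide RNA. Control replicates 1 to 3 were labelled RfxCas13d control, and whether they carried guides is not given in the sources used here. One library came from a knockdown with 10 guides injected together, 9 besides the one that targets szrd1, and one from a knockdown with 25 guides, 24 besides that one, to learn how many can be injected together when looking for efficient ones. The sources used here name neither the targets of the remaining guides nor the number of embryos per library. Tagmentation reactions were scaled down to 1/4 volume in control replicates 1 and 2 and to 1/8 volume elsewhere, so the volume separates control replicates 1 and 2 from all other libraries. Neither pool has a replicate, and the labels do not tell whether the controls were separate clutches, so each p-value reflects a spread that may be technical.

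Gene counts totalled between 5283761 and 14179837 per library, and each library detected the same number of members, 47. Entries that name no gene took between 26.7% and 33.9% of the reads, except in control replicate 3, where they took 53.8%. The 8 blastula markers differed widely in level. The marker nanog had between 1584 and 2225 CPM (normalised read counts scaled to library total), ndr1 13.7 to 26.4 CPM and eve1 at most 0.958 CPM. In CPM both pools were above all controls for sox19b and below all controls for vox and ved, and for none of the others. By contrast, 7 markers of later tissues summed to between 3.89 and 7.41 TPM (a length-scaled unit with the same total in each library). Of these, gfap, mylpfa and hbbe1.1 had no count, ckma had 1.92 to 4.42 CPM in all libraries, elavl3 reached 4.12 CPM, and hbae1.1 and ins stayed under 1 CPM. Enveloping layer markers summed to 374 TPM in control replicate 1 and to between 1106 and 1260 TPM in the other libraries. Their member krt5 had another order, with 0.32, 12.2 and 31.8 TPM in the controls and 1.56 and 3.23 TPM in the pools. Germ plasm markers summed to 661, 517 and 858 TPM in control replicates 1 to 3 and to 1234 and 1104 TPM in the 10-guide and 25-guide pools, both above all controls. Taken singly, buc and tdrd6 had both pools above all controls in TPM, whereas ddx4, dazl and nanos3 had both inside the control range. Yolk syncytial layer markers summed to 293, 444 and 285 TPM in the controls and to 209 and 236 TPM in the pools, both below all controls. Most of that sum was mxtx2, with 291, 371 and 264 TPM in the controls and 203.5 and 232 TPM in the pools. The part of these cell types in the members' values was not tested. The named target szrd1 stood at 221, 278 and 311 CPM in control replicates 1 to 3, at 41.3 CPM in the 10-guide pool and at 45.6 CPM in the 25-guide pool. Its log2 fold change in both pools together was -2.63 (SE 0.397), with an adjusted p of 0.232 by edgeR's quasi-likelihood test. In whole embryos, fewer cells of a type and less RNA per cell cannot be told apart.

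Most members were well expressed, and their order depended on the library. On the TPM scale, 15 of the 48 members had a control mean of at least 50, 19 lay between 10 and 50, 13 between 1 and 10, and 1 was under 1. The leading genes were nup43 with a control mean of 210.2 ± 58.2 TPM (SD, n = 3), nup62l with 182 ± 47.1, kpna7 with 178 ± 87.4 and nup35 with 176 ± 7.64. The differences between these 4 means were smaller than the SD of kpna7. By rank, kpna7 was the first member in control replicate 1 and the twelfth in control replicate 3, while kpna4 ranked first in control replicate 3 and both pools. Summed over all members, the level was 1969 and 1378 TPM in control replicates 1 and 2, 3402 TPM in control replicate 3, 3009 TPM in the 10-guide pool and 3576 TPM in the 25-guide pool. The 3 libraries made at 1/8 volume were thus all above the 2 made at 1/4, and the pools lay on either side of control replicate 3.

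**Figure D1:**
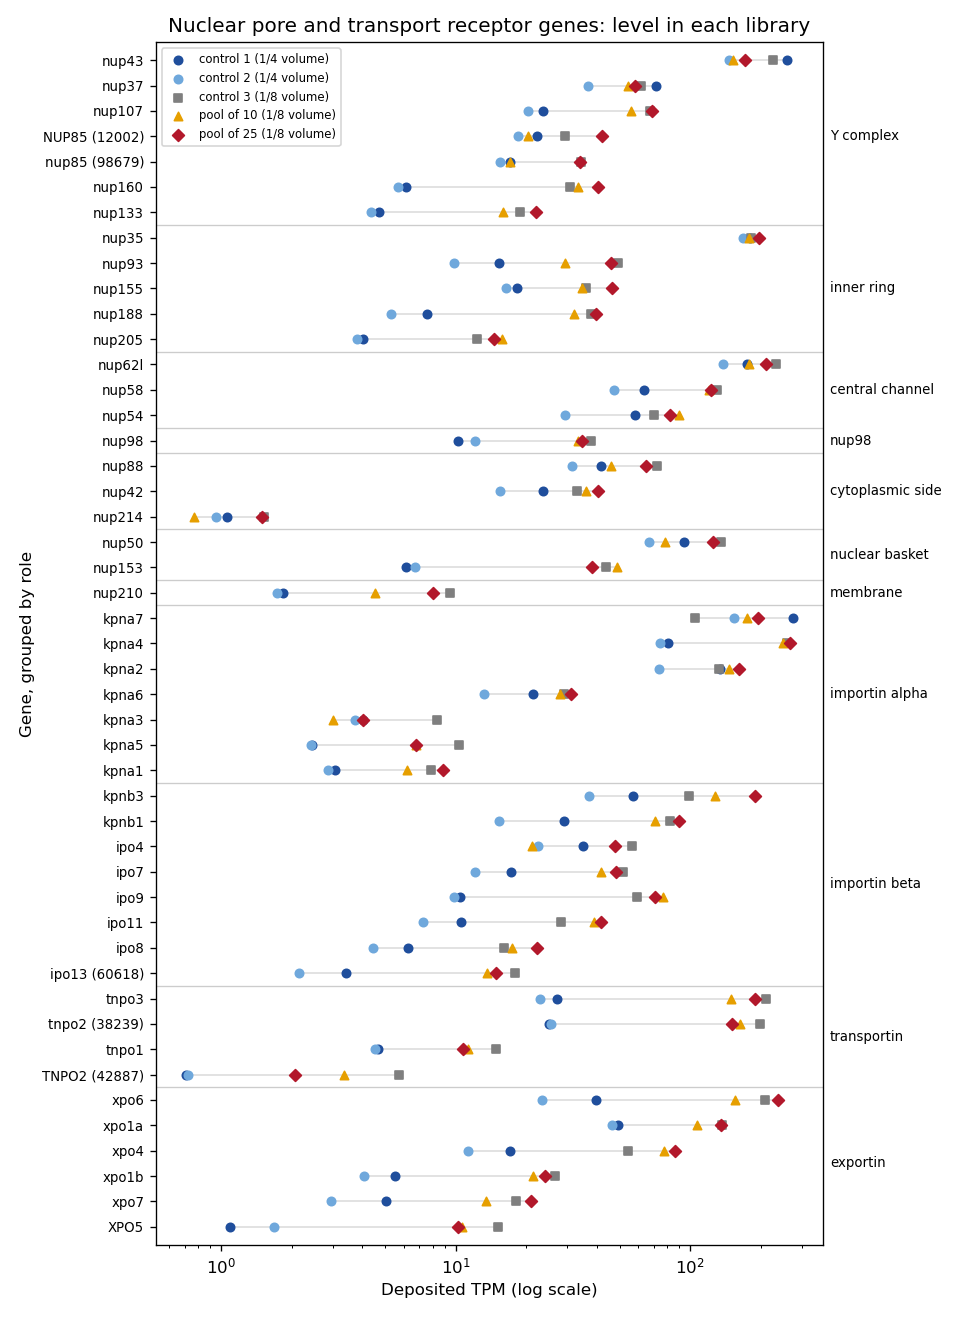
Deposited TPM (log scale) of each member in the 5 libraries, grouped by role, with IPO13 left out because it was listed at 0 in 4 of them. Bracketed digits are the last digits of the gene identifier where a symbol occurs more than once. Most members show the 2 controls at 1/4 volume on the left and the other 3 libraries together on the right, whereas nup35, nup43 and kpna2 do not.

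The clearest pattern among the members was this split between libraries, which ran through the controls. In 31 of 47 members every library at 1/8 volume had a higher CPM than both at 1/4, against 25.1% of all 16445 genes tested, and 6 members showed the opposite, against 27.7%. Control replicate 3 alone lay above control replicates 1 and 2 for 36 members (39.2% of all genes) and below both for 8 (42.5%). The split therefore appears between controls, with no pool in the comparison. By role, the higher level at 1/8 volume was found for 20 of 25 transport receptors tested and 11 of 22 nucleoporins. It included 6 of 6 exportins, 4 of 4 transportins, 7 of 8 importin beta genes and 4 of 5 inner ring genes, but 3 of 7 importin alpha genes, 3 of 7 Y complex genes and 0 of 3 genes of the cytoplasmic side.

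Members with many counts per TPM, the mark of a long transcript, carried most of the split. The ratio of counts to TPM, relative to the median gene of each library, had a median of 1.63 over the members and 0.993 over all genes tested. All genes were divided into 4 bins of about equal size by this ratio. In the bin with the highest ratio, 54.4% of all genes and 22 of 24 members were higher in every library at 1/8 volume. The next bin held 31.3% of all genes and 8 of 11 members with that pattern. In the 2 lower bins the pattern was found in 10.5% and 5.23% of all genes, and in 1 of 8 and 0 of 4 members. For all genes in the highest bin the median log2 difference from control replicates 1 and 2 was 0.84 in control replicate 3, 0.83 in the 10-guide pool and 0.88 in the 25-guide pool. For the 24 members of that bin it was 1.14, 1.02 and 1.28 in the same order. What part length or library volume plays in the members' levels was not tested.

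**Figure D2:**
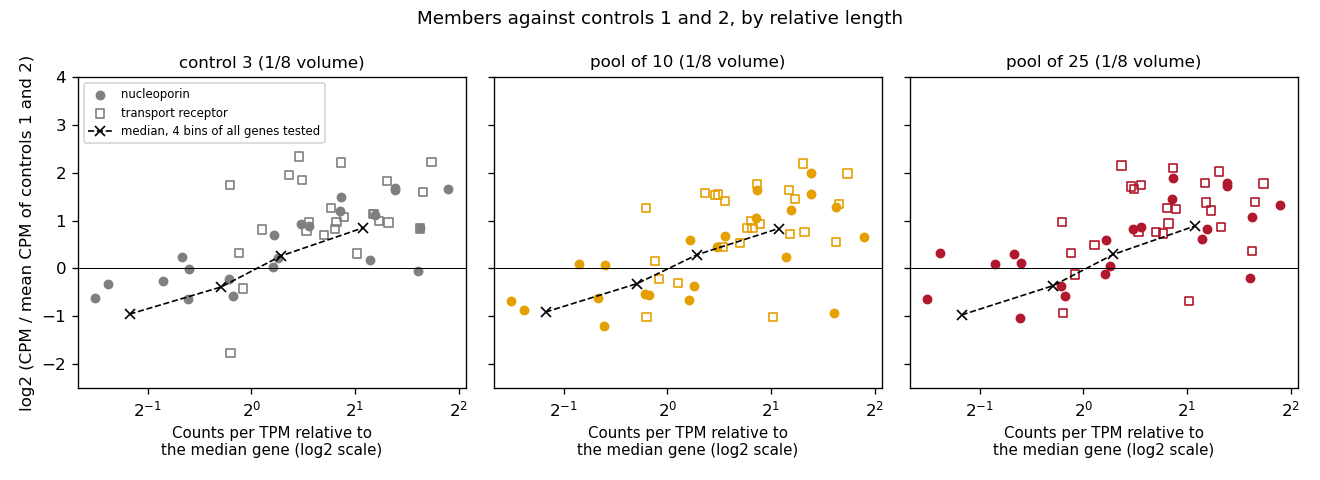
Each panel shows one library at 1/8 volume. Points are the 47 tested members, with the log2 ratio of CPM to the mean of control replicates 1 and 2 on the vertical axis and counts per TPM relative to the median gene on the horizontal axis (log2 scale). The dashed line joins the medians of 4 bins of all genes tested, which climb from -0.96 to 0.84 in control replicate 3, and most members lie on or above it in all panels.

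Among the outer scaffold genes, the Y complex was uneven at the RNA level although its protein subunits are built into one assembly. nup43 was the highest and nup133 the lowest, with control means of 210.2 ± 58.2 and 9.32 ± 8.30 TPM (SD, n = 3). The short subunit gene nup37 stood at 71.6, 36.7 and 61.8 TPM in control replicates 1 to 3, 54.5 TPM in the 10-guide pool and 58.2 TPM in the 25-guide pool, so both pools lay inside the control range on this scale. In CPM it had 42.3, 24.6 and 21.8 in the controls and 20.7 and 21.4 in the pools, just below the lowest control. nup160 had 20.0, 19.8 and 56.3 CPM in control replicates 1 to 3 and 61.9 and 74.0 CPM in the 10-guide and 25-guide pools. Both pools were above all controls, with control replicate 3 much closer to the pools than to the other controls. nup43 had 306, 171 and 153 CPM in the controls, 103 CPM in the 10-guide pool and 116 CPM in the 25-guide pool. Here both pools were below all controls in CPM, and control replicate 1 stood far above the rest. In TPM the pools, at 152 and 172, lay inside the control range of 146 to 259.

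nup107 and nup133, stem subunits of the Y complex, were higher at 1/8 volume in all 3 libraries. nup107 had 58.9 and 54.0 CPM in control replicates 1 and 2, 104 CPM in control replicate 3, and 90.6 and 102 CPM in the 10-guide and 25-guide pools. Both pools lay inside the control range in CPM, but in TPM the 25-guide pool, at 68.9, lay just above the highest control, at 67.3. The symbol nup85 occurs under 2 gene identifiers, ENSDARG00000098679 and ENSDARG00000112002 (the latter written NUP85), so their reads may be split between copies and are uncertain. The first had 18.5, 17.9 and 21.3 CPM in control replicates 1 to 3, 11.9 CPM in the 10-guide pool and 22.3 CPM in the 25-guide pool. NUP85 had 15.2, 12.9 and 11.3 CPM in the controls and 7.70 and 17.7 CPM in the pools. In CPM, for both identifiers, the 10-guide pool was below all controls and the 25-guide pool above. Opposite sides were seen for 2 of 47 members (4.26%) and 3.11% of all genes. In TPM this did not hold: nup85 in the pools, at 17.1 and 33.8, lay inside the control range of 15.5 to 34.1, and NUP85 in the 10-guide pool, at 20.3, lay inside that of 18.5 to 29.4.

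The inner ring genes encode the scaffold around the middle of the pore and did not share one order of the libraries. nup35, whose product binds the pore membrane, was even on the TPM scale, at 179, 168 and 182 TPM in control replicates 1 to 3, 178 TPM in the 10-guide pool and 197 TPM in the 25-guide pool. On the CPM scale it was lower at 1/8 volume, with 261 and 262 CPM in control replicates 1 and 2 and 175, 178 and 175 CPM in control replicate 3 and the 10-guide and 25-guide pools. For nup35 the library split thus shows on one scale and not on the other. The large scaffold gene nup188 had 33.4 and 27.4 CPM in control replicates 1 and 2, 98.0 CPM in control replicate 3, and 89.5 and 105 CPM in the pools. nup205 had 21.6, 21.7 and 38.9 CPM in the controls and 52.4 and 45.3 CPM in the 10-guide and 25-guide pools. nup155 had 70.9, 67.6 and 78.6 CPM in the controls and 81.7 and 106 CPM in the pools. For nup205 and nup155 both pools exceeded all controls in CPM. For nup155 the 10-guide pool did so by less than the SD of the controls, 5.63 CPM. The 25-guide pool did so for nup205 by less than the SD of its controls, 9.99 CPM. In TPM the 10-guide pool of nup155, at 34.5, lay below control replicate 3, at 36.0. nup93 had 39.4, 27.9 and 63.9 CPM in the controls and 45.5 and 59.7 CPM in the pools, inside the control range.

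The channel genes were among the higher nucleoporins. nup62l, related to the channel subunit Nup62, had 259, 219 and 205 CPM in control replicates 1 to 3, 165 CPM in the 10-guide pool and 186 CPM in the 25-guide pool. Both pools lay below all controls in CPM, but in TPM, at 178 and 212, they lay inside the control range of 138 to 232. Its partners nup54 and nup58 had both pools inside the control range in CPM. In TPM nup58 stayed inside it, whereas the nup54 pools, at 90.0 and 82.25, lay above the controls, at 58.1, 29.2 and 70.1. nup98, which encodes both a repeat-bearing subunit and a Y complex subunit as one precursor, had 40.2, 44.3 and 91.6 CPM in the controls and 98.3 and 74.6 CPM in the pools. In CPM the 10-guide pool was above all controls and the 25-guide pool below control replicate 3. In TPM both pools, at 33.2 and 34.6, lay inside the control range of 10.2 to 38.0.

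The basket genes did not share one order of the libraries either. nup153, which anchors the basket and recruits pores, had 28.0, 37.2 and 101 CPM in control replicates 1 to 3, 130.2 CPM in the 10-guide pool and 108 CPM in the 25-guide pool. In CPM both pools were above all controls, and control replicate 3 again sat with the pools. In TPM the 25-guide pool, at 38.3, lay below control replicate 3, at 43.8. nup50, a mobile cofactor of importin-driven import, had 186, 135 and 163 CPM in the controls, 101 CPM in the 10-guide pool and 149 CPM in the 25-guide pool. In CPM the 10-guide pool alone thus lay below the controls. In TPM both pools, at 78.0 and 126, lay inside the control range of 66.9 to 136. The membrane subunit gene nup210 had 11.6 and 11.9 CPM in control replicates 1 and 2, 36.9 CPM in control replicate 3, and 18.6 and 29.6 CPM in the pools. On the cytoplasmic side, nup214 had the lowest control mean of the nucleoporins on the TPM scale, 1.18 ± 0.302 (SD, n = 3). In CPM it had 5.36, 5.04 and 5.02 in the controls, 2.70 CPM in the 10-guide pool and 4.52 CPM in the 25-guide pool. These rest on few reads, 20 counts in the 10-guide pool and 33 in the 25-guide pool.

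The importin alpha family was carried by kpna7, kpna4 and kpna2. In mammals KPNA7 is known as the form of oocytes and early embryos, and KPNA2 as the form of dividing cells. Of the summed importin alpha TPM, kpna7 made up 52.8% and 47.5% in control replicates 1 and 2, 18.9% in control replicate 3, 28.5% in the 10-guide pool and 28.8% in the 25-guide pool. The share of kpna4 ran the other way, at 15.5%, 23.0%, 47.0%, 40.5% and 39.7% in the same order. The share of kpna2 stayed between 22.8% and 25.8% in all 5 libraries. Which importin alpha was the leading transcript therefore differed between controls, kpna7 in control replicates 1 and 2 and kpna4 in control replicate 3 and both pools.

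**Figure D3:**
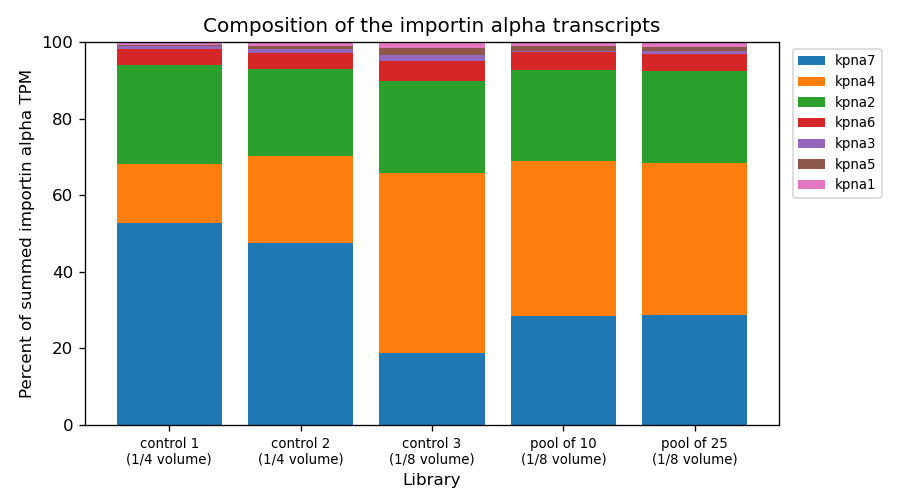
Stacked bars give the percent of summed importin alpha TPM in each library taken by each of the 7 kpna genes. The kpna7 segment takes 52.8% and 47.5% in the 2 controls at 1/4 volume, 18.9% in control replicate 3 and 28.5% and 28.8% in the pools, while kpna2 keeps about the same share.

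In CPM, kpna7 had 409, 247 and 95.5 in control replicates 1 to 3, 162 in the 10-guide pool and 171 in the 25-guide pool. Both pools lay between control replicates 2 and 3. Its log2 fold change in both pools was -0.59 (SE 0.538, edgeR adjusted p = 0.658) against 3 controls. With control replicate 3 as the only control of the same volume it was 0.80 (adjusted p = 0.531). The sign of the kpna7 difference thus turned with the control chosen. kpna2 had 216, 130.0 and 129 CPM in the controls and 148 and 158 CPM in the pools, inside the control range. In TPM the kpna2 pools, at 147 and 161, lay above the controls, at 134, 73.9 and 133. kpna4 had 254 and 245 CPM in control replicates 1 and 2, 486 CPM in control replicate 3, and 447 and 477 CPM in the pools.

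The remaining importin alpha genes were low. kpna3 had 13.7, 13.7 and 17.0 CPM in the controls, 6.75 CPM in the 10-guide pool and 8.49 CPM in the 25-guide pool, or 161, 163, 98, 50 and 62 counts. In CPM both pools were below all controls, which were close to each other. In TPM kpna3 had 4.03, 3.71 and 8.31 in the controls and 2.99 and 4.04 in the pools. On that scale the 25-guide pool lay inside the control range. The log2 fold change of kpna3 was -0.95 (SE 0.473, edgeR unadjusted p = 0.0715, adjusted p = 0.475). kpna1 ranged from 8.07 to 14.0 CPM over the 5 libraries, kpna5 from 6.98 to 17.5 CPM and kpna6 from 20.5 to 31.3 CPM. For kpna1 and kpna5 every library at 1/8 volume was above both at 1/4.

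In CPM both pools exceeded all controls for 9 of 47 members (19.1%), a share near the 14.6% of all genes. Of these 9 members, 4 were importin beta genes. kpnb3, named IPO5 in the reference gene table and known for importing ribosomal proteins and histones, had 111, 77.0 and 184 CPM in control replicates 1 to 3, 248 CPM in the 10-guide pool and 313 CPM in the 25-guide pool. The pools did not overlap the controls, and edgeR put the log2 fold change at 1.18 (SE 0.425, 95% interval 0.24 to 2.13, unadjusted p = 0.0193, adjusted p = 0.464). ipo9, a carrier of histones, had 43.6, 45.0 and 157 CPM in the controls and 203 and 180.2 CPM in the 10-guide and 25-guide pools (log2 fold change 1.23, SE 0.557, adjusted p = 0.465). ipo11 had 41.5, 32.9 and 74.3 CPM in the controls and 101 and 86.1 CPM in the pools (0.92, SE 0.433, adjusted p = 0.465). ipo8 had 19.2, 13.9 and 29.3 CPM in the controls and 32.8 and 39.7 CPM in the pools (0.81, SE 0.440, adjusted p = 0.489). In each of these genes control replicate 3 was the highest control.

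kpnb1, the importin beta that pairs with importin alpha, lay above all controls in the 25-guide pool and not in the 10-guide pool. It had 92.6, 53.4 and 154 CPM in control replicates 1 to 3 and 140 and 172 CPM in the 10-guide and 25-guide pools. ipo7 had 75.8, 57.2 and 129 CPM in the controls and 113 and 121 CPM in the pools, inside the control range. ipo4, another histone carrier, had 47.9, 34.7 and 72.5 CPM in the controls, 33.5 CPM in the 10-guide pool and 57.8 CPM in the 25-guide pool. The symbol ipo13 occurs under 2 identifiers: ENSDARG00000060618 had 8.25, 5.63 and 24.9 CPM in the controls and 20.3 and 21.9 CPM in the pools, and ENSDARG00000076996 (written IPO13) had no count in any library and was the member left out of the tests.

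The transportins showed some of the widest gaps between controls. tnpo2 (ENSDARG00000038239), which encodes an importer of RNA-binding proteins, had 144, 154 and 693 CPM in control replicates 1 to 3, 590 CPM in the 10-guide pool and 510.5 CPM in the 25-guide pool. tnpo3, an importer of SR splicing factors, had 85.7, 80.2 and 385 CPM in the controls and 281 and 356 CPM in the 10-guide and 25-guide pools. In both genes the pools lay inside the control range, far from control replicates 1 and 2. The log2 fold change was 0.74 (SE 0.625, adjusted p = 0.632) for tnpo2 and 0.80 (SE 0.632, adjusted p = 0.610) for tnpo3, and against control replicate 3 alone it was -0.33 and -0.28. tnpo1 ranged from 24.8 to 46.0 CPM, and a second gene with the symbol TNPO2 (ENSDARG00000042887) had 0.936, 1.43 and 3.98 CPM in the controls and 2.84 and 2.33 CPM in the pools.

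Of the exportins, xpo4 was the one with both pools above all controls. It encodes a receptor known to carry factors in both directions, and had 67.6, 47.8 and 127 CPM in control replicates 1 to 3, 180.3 CPM in the 10-guide pool and 198 CPM in the 25-guide pool. For xpo4 edgeR estimated 1.23 on the log2 scale (SE 0.447, 95% interval 0.24 to 2.23), with an unadjusted p of 0.0201 and an adjusted p of 0.464. The main exportin, Crm1, is encoded by xpo1a and xpo1b, related copies that may share reads. xpo1a had 118, 123 and 208 CPM in the controls and 165 and 204 CPM in the pools. xpo1b had 32.2, 23.9 and 85.2 CPM in the controls and 71.2 and 73.8 CPM in the pools. On the length-scaled TPM values xpo1a was above xpo1b in every library. Their ratio was widest in control replicate 2, with 46.3 against 4.08 TPM. It was narrowest in the 10-guide pool, with 107 against 21.4 TPM.

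The exporter of actin, xpo6, had 81.0, 61.0 and 276 CPM in control replicates 1 to 3, 212 CPM in the 10-guide pool and 315 CPM in the 25-guide pool. The exporter of microRNA precursors, XPO5, had 2.89, 5.38 and 20.9 CPM in the controls and 12.0 and 13.5 CPM in the pools. Its highest control was 7.24 times its lowest, the largest such ratio among members averaging at least 10 CPM. xpo7 had 21.4, 14.2 and 39.1 CPM in the controls and 29.4 and 46.3 CPM in the 10-guide and 25-guide pools. For xpo6 and xpo7 the 25-guide pool was above all controls and the 10-guide pool was not.

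Set against the 3 controls, no member passed the test in any comparison. Nor did any other gene tested, and the named target szrd1 was missed too (edgeR adjusted p = 0.232 in both pools together). A lack of calls here therefore does not show that the members were unchanged. edgeR called 0 of 47 members lower and 0 higher in the 10-guide pool, the 25-guide pool and both pools together, against 0.00% of all genes in each direction. Before adjustment, 0 members were lower and 0 higher at a p under 0.05 in the 10-guide pool, against 1.80% and 1.42% of all genes, and 0 and 0 in the 25-guide pool, against 1.84% and 1.22%. For both pools together there were 2 higher (kpnb3 and xpo4, against 3.97% of all genes) and 1 lower (nup43, against 6.66%). The log2 fold change of nup43 was -0.94 (SE 0.421, adjusted p = 0.465). For both pools together DESeq2 also called 0 members, against 106 of the 16445 genes tested. The median log2 fold change of the members was 0.29 in the 10-guide pool, 0.47 in the 25-guide pool and 0.37 in both together, beside -0.11, -0.12 and -0.08 over all genes tested. The log2 fold change was above 0 for 33 members in the 10-guide pool (45.1% of all genes), 37 in the 25-guide pool (44.9%) and 34 in both together (46.6%). Each of these comparisons uses the same 3 controls.

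**Figure D4:**
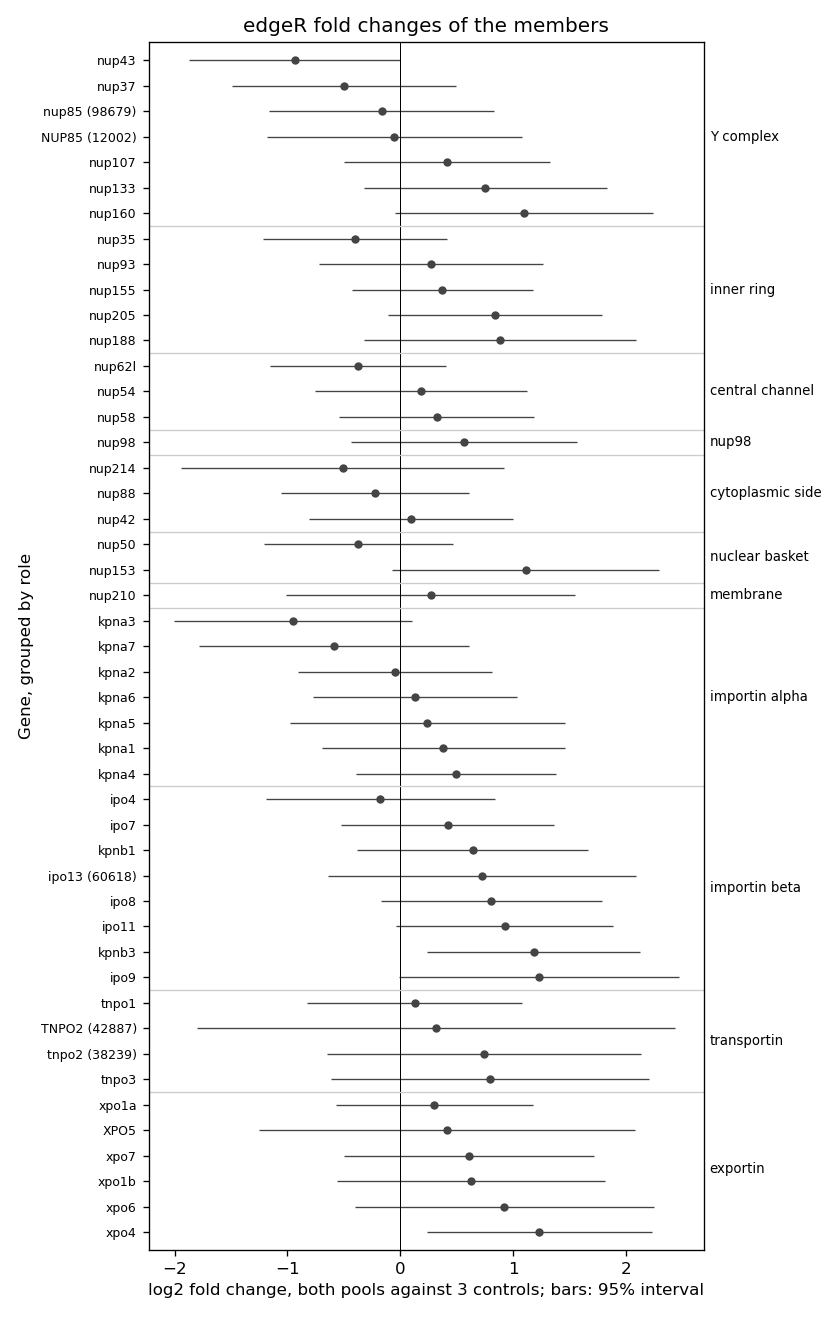
edgeR log2 fold changes of the 47 tested members for both pools against 3 controls, grouped by role, with 95% intervals as bars. The exportins and transportins and all but 1 of the importin beta genes lie to the right of 0, and the intervals of kpnb3 and xpo4 on the right and nup43 on the left leave out 0 before adjustment.

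Both pools lay above all controls for 9 members, against 14.6% of all genes, and below all controls for 5, against 14.9%. Singly, the 10-guide pool lay below all controls for 10 members (23.7% of all genes) and above for 10 (23.6%), and the 25-guide pool for 6 (25.1%) and 18 (24.3%). The shares for both pools, 19.1% and 10.6% of the 47 members, stand near the background. The higher members were kpnb3, ipo8, ipo9, ipo11, xpo4, nup153, nup155, nup160 and nup205. Except for kpnb3 and xpo4, the lower of the pools exceeded the highest control by less than the SD of the controls. The lower were nup43, nup62l, nup214, kpna3 and nup37. These positions are in CPM. On deposited TPM both pools lay above all controls for 10 members and below for 0, and the share of all genes was not counted. The median log2 fold change of all genes in both pools was itself 0.36 on log2(TPM + 1) and 0.45 on log2(TPM + 0.1). These TPM counts are therefore not read as a result about the members.

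The outcome turned on control replicate 3. Without it, edgeR called 21 members higher (11.9% of all genes) and 2 lower (12.8% of all genes) in both pools, and the members' median log2 fold change was 0.77. Both remaining controls were made at 1/4 volume. The members called higher included tnpo2 (1.87, adjusted p = 0.00168), tnpo3 (1.93, adjusted p = 0.00176), ipo9 (2.10, adjusted p = 0.00168), xpo6 (1.89, adjusted p = 0.00236) and nup153 (1.86, adjusted p = 0.00226). The 2 called lower were kpna7 (-0.98, adjusted p = 0.0241) and nup43 (-1.13, adjusted p = 0.0198). In this contrast the guides and the library volume cannot be told apart. With a term for the volume, which sets the pools against control replicate 3, the members' median was -0.20 in the 10-guide pool, -0.03 in the 25-guide pool and -0.07 in both, and 0 members passed.

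Within the libraries at 1/8 volume, the pools and control replicate 3 were close for most members. Control replicate 3, the only reference here, had the lowest total of gene counts, 5283761. Its unmapped reads made up 44.0%, against 13.1% to 21.0% in the other libraries. The part of this in the ratios below was not tested. Among the 45 members averaging at least 10 CPM, 1 was at least 1.5-fold above control replicate 3 in both pools (kpna7, against 8.47% of all such genes) and 2 were as far below (kpna3 and XPO5, against 5.16%). Taken singly, the 10-guide pool had 6 members as far below (10.5%) and 1 above (14.9%), and the 25-guide pool had 2 below (12.2%) and 4 above (13.4%). kpna7 was 1.69 times control replicate 3 in the 10-guide pool (exact 95% interval 1.53 to 1.88) and 1.79 times in the 25-guide pool (1.62 to 1.99). kpna3 was at 0.398 (0.277 to 0.565) and 0.50 (0.358 to 0.695). These intervals cover counting error only, and with 1 control at this volume they hold no spread between replicates. kpnb3 was at 1.35 (1.25 to 1.46) in the 10-guide pool and 1.70 (1.58 to 1.83) in the 25-guide pool, and xpo4 at 1.42 (1.30 to 1.56) and 1.57 (1.43 to 1.71). All 4 transportin genes were below control replicate 3 in both pools, as were 23 of 47 members and 37.3% of all genes. For the low TNPO2 gene the ratio intervals, 0.375 to 1.35 and 0.293 to 1.14, include 1. For tnpo2 the ratio was 0.852 (0.816 to 0.889) in the 10-guide pool and 0.737 (0.705 to 0.771) in the 25-guide pool.

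**Figure D5:**
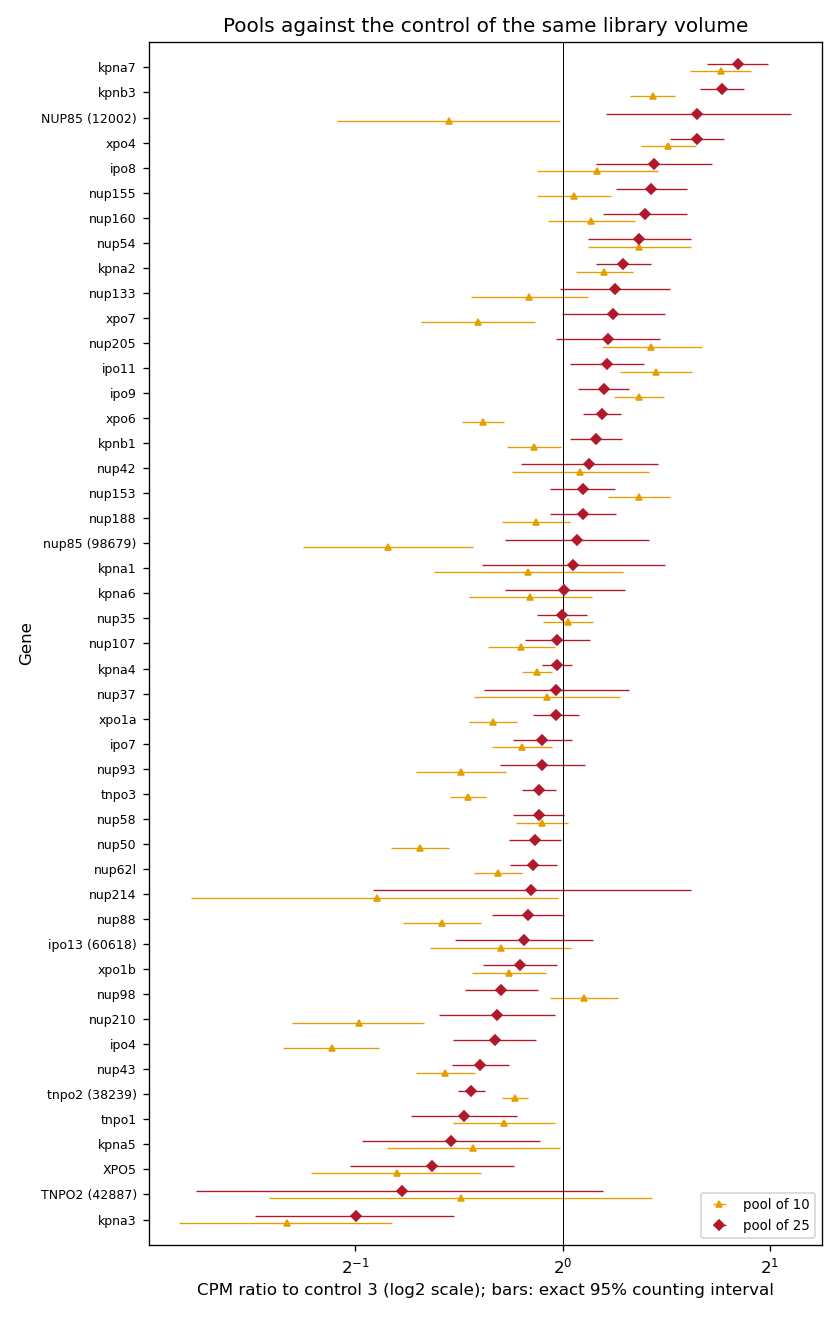
Ratio of CPM in each pool to control replicate 3 (log2 scale) for the 47 tested members, with exact 95% counting intervals as bars and genes sorted by the 25-guide pool. kpna7, at 1.69 and 1.79, stands at the top and kpna3, at 0.398 and 0.50, at the bottom.

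The 25-guide pool and the 10-guide pool were not told apart for any member, with 0 of 47 called in either direction by edgeR (0.00% of all genes) or DESeq2. Before adjustment, 0 were lower and 0 higher at a p under 0.05, against 0.334% and 0.456% of all genes. The members' median log2 fold change, 25-guide pool over 10-guide pool, was 0.17, beside 0.00 over all genes, and it was above 0 for 35 members and 49.4% of all genes. Among members averaging at least 10 CPM, 5 of 45 were at least 1.5-fold higher in the 25-guide pool, against 6.65% of all such genes, and 0 were as far below, against 9.53%. Those 5 were NUP85, nup85, ipo4, nup210 and xpo7. For ipo4 edgeR estimated 0.79 on the log2 scale (SE 0.821, 95% interval -1.03 to 2.60, adjusted p = 1) and for nup50 it was 0.56 (SE 0.727, adjusted p = 1), so differences in either direction lie within the interval for ipo4.

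The pathway has genes that the symbols do not catch, and these were read from a list of 46 symbols, which matched 36 genes in the tables. edgeR called 0 of 36 lower and 0 higher in both pools, against 0.00% of all genes in each direction. The median log2 fold change of the 36 was 0.11, beside -0.08 over all genes tested. At 1/8 volume 15 of the 36 (41.7%, against 25.1% of all genes) were above both libraries at 1/4 and 11 (30.6%, against 27.7%) were below. Those with the smallest unadjusted p were rangrf, cse1l and eny2. rangrf, which encodes a Ran release factor, had 103, 77.4 and 26.0 CPM in control replicates 1 to 3, 14.5 CPM in the 10-guide pool and 15.5 CPM in the 25-guide pool. cse1l, the exporter that returns importin alpha to the cytoplasm, had 40.1, 26.3 and 60.4 CPM in the controls and 89.0 and 94.7 CPM in the pools. eny2, which takes part in mRNA export, had 480 and 552 CPM in control replicates 1 and 2 and 161, 160.5 and 157 CPM in control replicate 3 and the pools. The log2 fold changes were -2.20 (SE 0.589), 1.12 (SE 0.427) and -1.33 (SE 0.515) in that order, and the edgeR adjusted p was 0.464 for each.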

How the data were processed

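RNA of 5 libraries was analysed from raw read counts per gene and TPM values, both as deposited by the authors. The units were read from the values: whole-number counts with different totals, and deposited TPM values that sum to the same total in each library. The submitters' processing notes name bcl2fastq 2.20 and the genome build danRer11. Which aligner and counter were used is not given in the sources used here. The 4 entries that name no gene were left out. Counts were tested with edgeR 4.0.16 in R 4.3.3 (TMM scaling, filterByExpr with a minimum count of 10, quasi-likelihood F test, Benjamini-Hochberg adjustment over 16445 genes, threshold 0.05). Single pools were fitted with 3 groups, and both pools together with 2 groups, so the spread rests on 2 and 3 residual degrees of freedom. CPM values are TMM-scaled. Alternatives used DESeq2 1.42.0 and limma 3.58.1. The edgeR step was run on simulated counts with the same dispersion for every gene and no effect of library volume. That run therefore does not measure its error at the spread of these libraries. Counts per TPM stood in for length. Ratios between single libraries carry exact conditional binomial intervals for counting error.

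The members and the gene lists were chosen with earlier results of these data known. Values in every library are printed for the members highest in the controls, those with both pools outside the controls, those with the smallest p in each comparison, all importin alpha genes, same-numbered copies and the members with the widest control range. Further members were added after their values were seen, to fill the roles. The count of members split by library volume, the ratios to control replicate 3 and the bins by counts per TPM were also chosen after seeing the data.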

Additional observations from a re-analysis of the deposited data

Results flagged for a closer look

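The 2 gene identifiers named nup85 stood out because the pools lay on opposite sides of the controls in CPM, with the 10-guide pool below all controls and the 25-guide pool above. Opposite sides were seen for 2 of 47 members (4.26%) and 3.11% of all genes, a share near the background. In TPM the pattern did not hold for either identifier. The log2 fold change between the pools was 0.91 for nup85 (SE 0.805, edgeR unadjusted p = 0.285, adjusted p = 1) and 1.20 for NUP85 (SE 0.875, unadjusted p = 0.200, adjusted p = 1), so neither difference passed the test. The identifiers may share reads, and their counts are not independent.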

How the results depend on the processing

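No member was called in any comparison under the other scalings, filters, DESeq2, limma voom, limma on TPM or the volume term. Over all genes, both pools together gave 137 calls of 23945 with no filter and 106 of 16445 with DESeq2. The volume term gave 10 of 16445, and the remaining settings named gave 0. For both pools the count ranged from 0 to 23 when 1 library was left out, with 23 without control replicate 3. Leaving out 1 library gave 9 to 31 members with the pools above the controls and 5 to 10 below. Without the 10-guide pool 18 lay above and 6 below, against 24.3% and 25.1% of all genes. Without the 25-guide pool it was 10 and 10, against 23.6% and 23.7%. The share of all genes was not counted with a control left out. In the split by volume, leaving out 1 library gave 31 to 34 members above and 6 to 10 below, and the share of all genes was not counted. Counts given without that share are not read as results about the members. Members below the controls numbered 2 with library size only and 0 on deposited TPM, and the same counts, 2 and 0, were found below in the split by volume. The share of all genes was not counted for these settings either. Over libraries left out, the members' median ranged from 0.17 to 0.77 for both pools, 0.13 to 0.66 for the 10-guide pool, 0.29 to 0.83 for the 25-guide pool and 0.17 to 0.20 between pools. On log2(TPM + 0.1) it was 0.91, 0.82 and 1.09 for both pools, the 10-guide pool and the 25-guide pool, and on log2(TPM + 1) it was 1.04 for the 25-guide pool. The TPM scale also put the median of all genes between 0.33 and 0.52 in these comparisons. With the volume term the median was -0.027 for the 25-guide pool, -0.20 for the 10-guide pool and -0.075 for both. Between pools it was 0.23 with library size only and 0.21 on both TPM scales. Signs turned for kpna7 (0.17 on both TPM scales, 0.80 with the volume term), nup37 (0.044 and 0.046 on TPM + 1 and TPM + 0.1), nup62l (0.13 on both), tnpo2 (-0.33 with the volume term) and tnpo3 (-0.28), and the cause was not tested. szrd1 passed at -2.64 with no filter and with DESeq2, at -2.84 with the volume term and at -2.53 without control replicate 3, within a range of -2.76 to -2.53 over libraries left out. No paired analysis was possible because each pool is 1 library whose label carries no replicate number. Each pool has 1 library, and low members such as nup214 and TNPO2 rest on few reads.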
